A study of Mus musculus with 25 samples.

Results

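KLF4 HiChIP and Hi-C were compared in mouse embryonic stem (ES) cells, to ask which chromatin contacts recovered with a KLF4 antibody were also recovered without any antibody. The members were 6 of the 25 libraries of the study, chosen by their titles: 4 KLF4 HiChIP libraries and 2 Hi-C libraries. Each assay came with a list of interactions between 10 kb bins of the same chromosome, with 24589 pairs in the KLF4 list and 318622 in the Hi-C list. A pair was placed in both lists when both of its bins had the same start in each, and otherwise in one list only. Of the 327763 pairs in either list, 15448 were in both, 9141 in the KLF4 list only and 303174 in the Hi-C list only. The study also profiled fibroblasts, reprogramming cells and TKO cells with HiChIP or Hi-C, and those lists enter here only as further readouts of the same pairs.

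All 6 libraries came from V6.5 ES cells kept in the 2i condition, in which inhibitors hold the cells in a naive state, and fixed with 1% formaldehyde. The KLF4 libraries were precipitated with a Klf4 antibody, whose maker (R&D) is given for replicate 1 only. Hi-C followed the Arima protocol. No genetic change or treatment is given for either group, and the labels do not say that the replicates were separate cultures, so p-values measure the spread between these libraries, which may be technical. The bins of the files are on mm10.

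KLF4 is a zinc finger transcription factor that belongs to the network of factors maintaining naive pluripotency, and it is also a factor used to reprogram fibroblasts. It binds GC-rich sites at promoters and enhancers. In Hi-C, neighbouring DNA ends in the fixed nucleus are ligated and sequenced whatever protein is bound to them. HiChIP adds an immunoprecipitation after the ligation, so that a HiChIP count reflects both how often 2 bins met and how much of the precipitated protein was bound there.

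To describe how often promoters at KLF4 pairs carry a sequence KLF4 is known to bind, windows from 250 bases before to 50 bases after a start (RefSeq, GRCm38.p6) were searched on both strands for GGGNGTGGC, where N is any base. The motif was present in 6.81% of all 21263 promoter windows. It was present in 9.62% (95% Wilson interval 8.93 to 10.3) of 6707 windows in bins of both lists, in 6.05% (5.55 to 6.60) of 7864 in bins of the Hi-C list only and in 4.67% (4.17 to 5.22) of 6258 in bins of neither list. In bins of the KLF4 list only it was present in 7.83% (5.66 to 10.7) of 434 windows, an interval that overlapped those of both lists and of Hi-C only. The share was 8.51% in bins with 1 KLF4 pair and 12% (9.99 to 14.3) in the 868 windows whose bin had 5 or more. GC content moved with these groups, with medians of 61.0%, 57.0% and 47.3% for both lists, Hi-C only and neither. Among windows of 60% GC or more the shares were 11.9% (10.9 to 13.0), 9.22% (8.25 to 10.3) and 10.6% (8.98 to 12.4), so the intervals of both lists and neither overlapped once GC was held in this range, while that of Hi-C only lay lower than that of both lists. The 3 windows below lie in the bins with most KLF4 pairs among those holding the motif, at most 1 per chromosome. The fourth belongs to Tfcp2l1, a naive pluripotency factor, which was the only gene with a match among the 22 pluripotency and ES genes with a window and whose bin had 0 KLF4 pairs and 6 Hi-C pairs. Capitals mark the motif or its reverse complement.
Frmd8, chr19:5875159-5875458, minus strand, bin with 12 KLF4 and 9 Hi-C pairs: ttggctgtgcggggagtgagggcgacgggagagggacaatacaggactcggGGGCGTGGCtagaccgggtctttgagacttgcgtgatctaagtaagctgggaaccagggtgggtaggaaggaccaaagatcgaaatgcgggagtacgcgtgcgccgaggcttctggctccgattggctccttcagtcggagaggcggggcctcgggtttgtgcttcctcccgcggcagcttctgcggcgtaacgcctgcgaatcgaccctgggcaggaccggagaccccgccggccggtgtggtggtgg
Anks1, chr17:27909056-27909355, plus strand, bin with 11 KLF4 and 19 Hi-C pairs: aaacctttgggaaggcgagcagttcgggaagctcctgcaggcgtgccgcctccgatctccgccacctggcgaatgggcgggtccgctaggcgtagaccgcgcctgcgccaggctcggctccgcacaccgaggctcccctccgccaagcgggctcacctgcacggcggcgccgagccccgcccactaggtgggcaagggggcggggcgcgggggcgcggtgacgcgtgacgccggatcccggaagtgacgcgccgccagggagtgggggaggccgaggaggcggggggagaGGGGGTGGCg
Ephb3, chr16:21204545-21204844, plus strand, bin with 11 KLF4 and 16 Hi-C pairs: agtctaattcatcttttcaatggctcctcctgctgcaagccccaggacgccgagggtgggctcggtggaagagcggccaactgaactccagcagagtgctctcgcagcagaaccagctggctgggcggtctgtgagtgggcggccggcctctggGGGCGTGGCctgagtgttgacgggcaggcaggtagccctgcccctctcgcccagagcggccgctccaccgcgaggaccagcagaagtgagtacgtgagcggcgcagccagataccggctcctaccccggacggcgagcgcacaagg
Tfcp2l1, chr1:118627695-118627994, plus strand, bin with 0 KLF4 and 6 Hi-C pairs: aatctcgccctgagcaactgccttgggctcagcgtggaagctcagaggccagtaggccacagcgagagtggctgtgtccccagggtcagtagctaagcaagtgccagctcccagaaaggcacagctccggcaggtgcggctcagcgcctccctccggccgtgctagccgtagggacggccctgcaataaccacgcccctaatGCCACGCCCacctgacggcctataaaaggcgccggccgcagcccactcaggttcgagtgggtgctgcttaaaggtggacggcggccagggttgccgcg
Each window held 1 match. A match is a description of the letters in the window and not evidence of binding.

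The KLF4 libraries held 51.9 M to 102 M contacts, as recovered from the ratio of count to CPM in the list, of which 0.607% to 0.720% fell in listed pairs, and the median listed pair had 14 to 24 counts per library. The Hi-C libraries held 8525641 and 10015967 listed counts, with medians of 23 and 27 per pair, and their total depth is unknown. KLF4 replicates 1 and 2 agreed within sampling noise over 9106 well-counted pairs (chi-square over degrees of freedom 1.01, p = 0.239), as did replicates 3 and 4 (0.966, p = 0.989), while every cross pair of these differed (1.25 to 1.5). They were therefore counted as 2 KLF4 replicates, against 2 of Hi-C. The Hi-C libraries differed from each other, with a chi-square over degrees of freedom of 1.23 over 154909 pairs. Every listed KLF4 pair had a deposited p under 0.1 and a CPM above 3 in replicates 1 and 2. In the Hi-C list the highest deposited p was 0.00998 and the lowest signal 15.0, on a scale unlike the KLF4 CPM. The lists therefore had unlike limits. A deposited FDR under 0.1 was found for 0.199% of KLF4 pairs, against 8.80% in Hi-C. The lowest summed KLF4 count of a listed pair differed by chromosome, from 14 on chromosome 19 and 15 on chromosome X to 55 on chromosome 1. Pairs of lower count were therefore listed on chromosomes 19 and X.

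Most listed KLF4 pairs were also listed by Hi-C. Of the 24589 KLF4 pairs, 62.8% (95% Wilson interval 62.2 to 63.4) were in the Hi-C list, and these made up 4.85% (4.77 to 4.92) of the longer Hi-C list. It ran from 59.9% to 66.5%, in no steady order, when KLF4 pairs were split into 5 equal groups by summed count. By chromosome the share ranged from 47.3% on chromosome 19 and 48.9% on chromosome 11 to 87.0% on chromosome X. Of the 9141 KLF4-only pairs, 72.3% had a Hi-C pair within 1 bin of both anchors, and 75.3% had both anchors among the bins of the Hi-C list. The share rests on the length of the lists: with the Hi-C list reduced to its 24589 strongest pairs by count, 14.7% of the KLF4 pairs were found in it, and with a tolerance of 1 bin in the whole list 89.7% were. How far the unlike p limits of the lists set the share and the classes was not tested.

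KLF4 pairs spanned shorter distances than the pairs of Hi-C alone. The median distance between anchors was 20 kb for pairs in both lists and for KLF4-only pairs, and 40 kb for Hi-C-only pairs. Anchors lay 50 kb or more apart in 16.6% (16.0 to 17.2) of pairs in both lists, 14.9% (14.2 to 15.7) of KLF4-only pairs and 49.6% (49.4 to 49.8) of Hi-C-only pairs. Adjacent bins made up 34.3%, 41.8% and 14.6% of the classes. KLF4 pairs 50 to 90 kb long were in the Hi-C list in 70.4% (68.6 to 72.1) of cases, those of adjacent bins in 58.1% (57.1 to 59.1) and those of 200 kb or more in 34.9% (29.1 to 41.2). Of the 153 KLF4-only pairs of 200 kb or more, 100 lay on chromosome 19. With 1 cutoff of 55 summed counts on every chromosome, the share of pairs at 50 kb or more was 7.41% for both lists and 2.5% for KLF4 only, under the 49.6% of Hi-C only. The order turned for pairs in both lists when only pairs with a deposited FDR under 0.1 were kept, a limit that 49 KLF4 pairs passed: 72.4% (54.3 to 85.3) of those in both lists then spanned 50 kb or more, against 59.998% of Hi-C only and 45.0% (25.8 to 65.8) of KLF4 only.

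**Figure D1:**
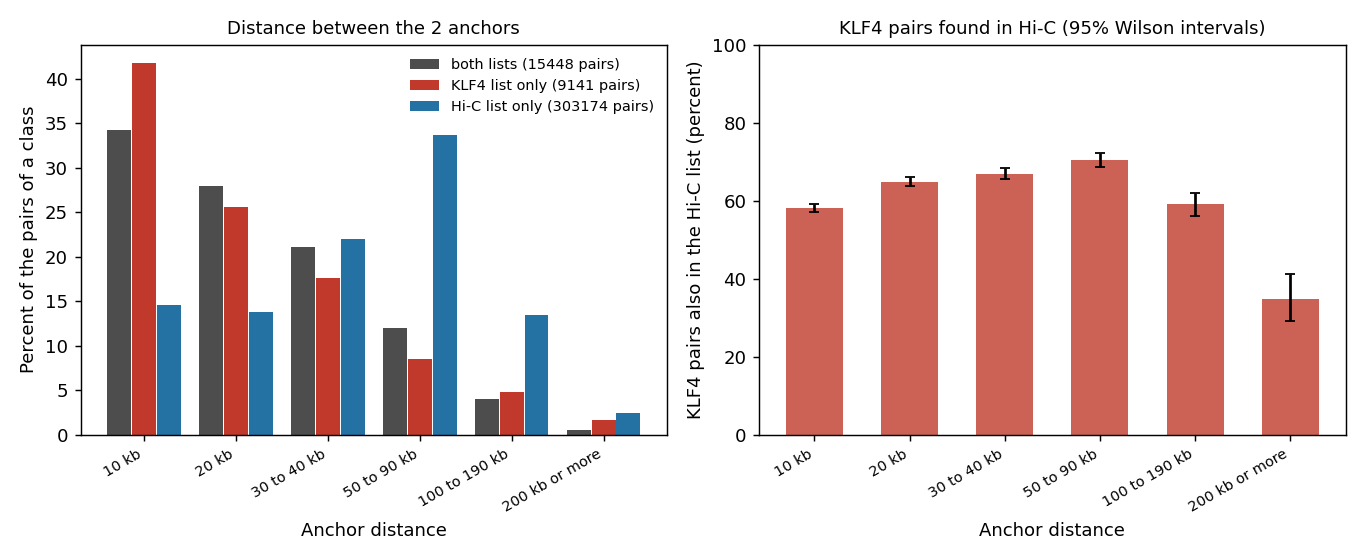
Left, percent of the pairs of each class (y axis) at each anchor distance (x axis), for 15448 pairs in both lists, 9141 in the KLF4 list only and 303174 in the Hi-C list only. Right, percent of KLF4 pairs that were also in the Hi-C list at each distance, with 95% Wilson intervals; the share peaked at 70.4% for 50 to 90 kb and was lowest, 34.9%, at 200 kb or more.

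The longest pair in both lists joined bins 620 kb apart on chromosome 4, starting at 145430001 and 146050001, with 23, 18, 24 and 26 KLF4 counts and 24 and 47 Hi-C counts. The next joined the start bin of Tsc22d1, a leucine zipper transcription regulator, to a bin 500 kb away, with 12, 8, 9 and 5 KLF4 counts. The longest KLF4-only pair, 1020 kb on chromosome 19, joined the start of Adra2a, an adrenergic receptor gene, to the body of Gpam, an enzyme of glycerolipid synthesis, with 7, 6, 3 and 9 counts. These counts are near the lower count limit of that chromosome. A KLF4-only pair of 420 kb on chromosome 13, with no gene in either anchor, had 17, 9, 7 and 18 counts.

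KLF4 contacts, whether or not Hi-C listed them, joined bins with gene starts more often than the contacts of Hi-C alone. The same held for active chromatin, as marked in TKO cells. A protein-coding gene start lay in at least 1 anchor of 48.5% (47.7 to 49.3) of pairs in both lists, 42.8% (41.8 to 43.9) of KLF4-only pairs and 21.5% (21.3 to 21.6) of Hi-C-only pairs, with chromosome 18 left out because its starts were not used here. Both anchors held one in 8.65%, 6.39% and 2.40%. The difference was present at matched distance: among pairs 50 to 90 kb long the shares with at least 1 start were 49.6%, 46.9% and 23.2%. H3K27ac is an acetylation found on histones at active regulatory DNA, and TKO cells at 0 h of doxycycline had marked peaks in the bins of their own H3K27ac HiChIP list. Such a peak lay in both anchors of 44.3% (43.5 to 45.1) of pairs in both lists, 50.1% (49.1 to 51.1) of KLF4-only pairs and 9.89% (9.78 to 9.99) of Hi-C-only pairs. A bin absent from the TKO lists counts here as having no peak.

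The other lists of the study split the classes differently. H3K27ac HiChIP of ES cells listed 75.1% of pairs in both lists, 72.1% of KLF4-only pairs and 8.92% of Hi-C-only pairs. KLF4 HiChIP at day 3 of reprogramming listed 31.7%, 27.3% and 2.43%. Hi-C of fibroblasts (MEF) listed 64.8% (64.0 to 65.5) of pairs in both lists but 23.3% (22.5 to 24.2) of KLF4-only pairs, under the 38.7% (38.6 to 38.9) of Hi-C-only pairs. At 20 kb, where the classes share a distance, these were 65.1%, 23.7% and 54.3%. KLF4-only pairs were defined by their absence from the ES Hi-C list, and how far that choice sets their share in another Hi-C list was not tested. With a tolerance of 1 bin for sharing, the ES H3K27ac shares were 47.9% for both lists and 64.9% for KLF4 only. The order of these classes turned, but their members changed as well. The class of both lists then also took in Hi-C pairs near a KLF4 pair. It held 60647 pairs, more than the 24589 of the whole KLF4 list, and KLF4 only held 2535. Anchors lay in different topologically associating domains in 0.949% (0.806 to 1.12) of pairs in both lists, 2.16% (1.88 to 2.48) of KLF4-only and 1.87% (1.83 to 1.92) of Hi-C-only pairs. The 2880 ES domains are the authors' list, given in steps of 40 kb. They come from the same Hi-C libraries that define the classes, so this readout is not independent of them.

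**Figure D2:**
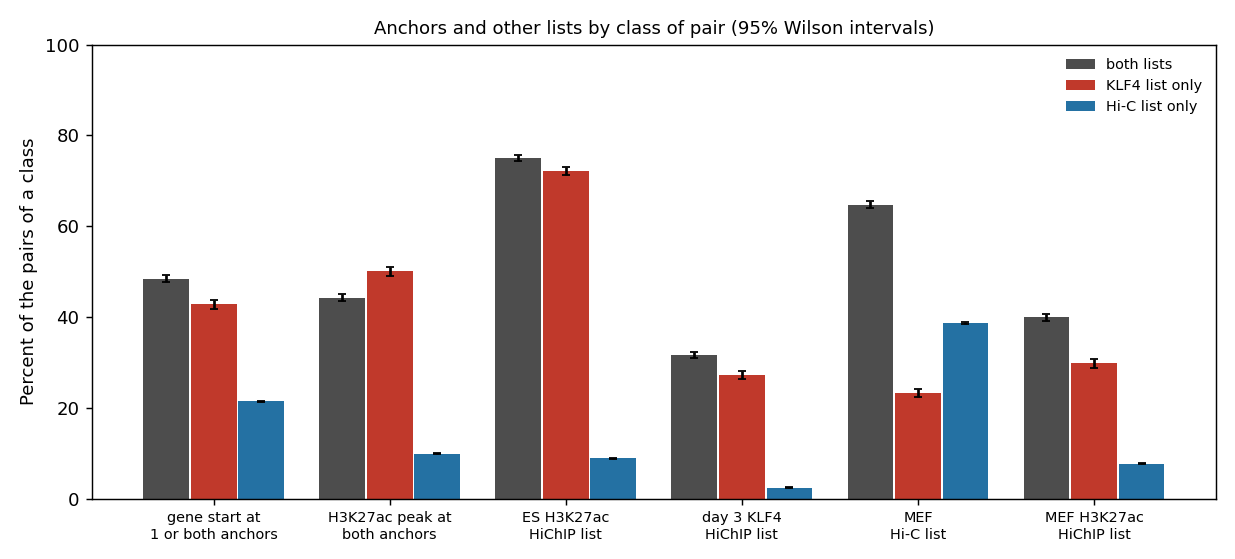
Percent of the pairs of each class (y axis) that had a gene start or a TKO 0 h H3K27ac peak at the anchors, or that were also in another list of the study (x axis), with 95% Wilson intervals. Pairs in both lists and KLF4-only pairs sit together for the ES H3K27ac list, at 75.1% and 72.1%, and apart for the MEF Hi-C list, at 64.8% and 23.3%.

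Bins joined by KLF4 were also well connected in Hi-C. Of the bins with a KLF4 pair, 23373 had a Hi-C pair as well and 1959 had none, and 87840 bins had Hi-C pairs only. The median number of Hi-C pairs per bin was 8 in the bins of both lists and 4 in those of the Hi-C list only. The median of 8 leaves out the 1959 KLF4 bins with no Hi-C pair. With those bins included, it was 6 for bins with 1 KLF4 pair, 8 for 3 to 4 and 11 for 10 or more. A pair in both lists is counted in both numbers of its bins, which favours such a rise. Within the bins of both lists, however, the ranks of the 2 numbers were only weakly related (Spearman rho 0.12 over 23373 bins, which share neighbours and pairs). The share of bins with a gene start was 7.60% with 0 KLF4 pairs, 16.6% with 1, 32.3% with 3 to 4 and 37.8% (29.6 to 46.8) with 10 or more. TKO 0 h H3K27ac peaks lay in 11.5% of bins with 0 KLF4 pairs, 42.6% with 1, 83.8% with 5 to 9 and 83.6% with 10 or more. Of the 128 bins with 10 or more KLF4 pairs, 71 lay on chromosome 19, where the count limit was lowest. Chromosome X had a limit of 15 and 484 KLF4 pairs, against 14 and 2220 on chromosome 19. The cause of this gathering on chromosome 19 was not tested.

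**Figure D3:**
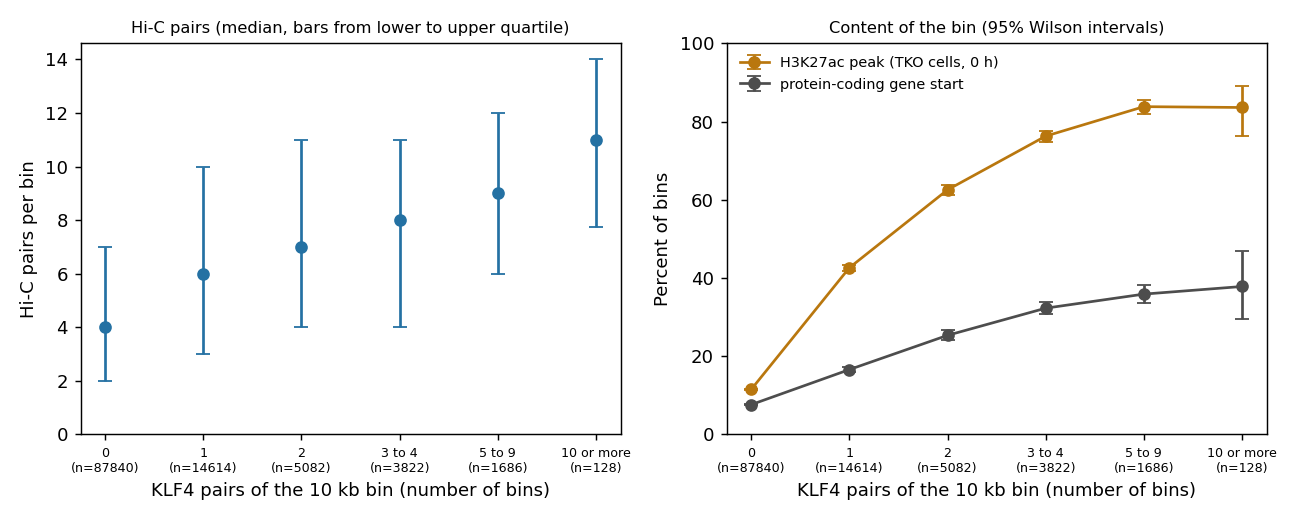
Bins grouped by their number of KLF4 pairs (x axis, with the number of bins). Left, Hi-C pairs per bin, as medians with bars from the lower to the upper quartile. Right, percent of bins with a TKO 0 h H3K27ac peak or a protein-coding gene start, with 95% Wilson intervals; both shares were lowest in the bins with 0 KLF4 pairs, at 11.5% and 7.60%.

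With at most 2 bins taken per chromosome, the bin with most KLF4 pairs, on chromosome 19 from 6120001 to 6130000, lay in Snx15, a sorting nexin gene of endosomal traffic. It had 21 KLF4 pairs and 8 Hi-C pairs, and all 8 of the latter were KLF4 pairs too. Another, from 8990001 on the same chromosome in the body of Ahnak, which encodes a very large scaffold protein, had 20 KLF4 and 14 Hi-C pairs, of which 13 were shared. The start bin of Ube2l3, a ubiquitin-conjugating enzyme, on chromosome 16 from 17200001, had 14 and 18 pairs, of which 12 were shared. A bin on chromosome 12 from 86900001, with no protein-coding gene in it, had 14 and 12 pairs, of which 10 were shared. A bin on chromosome 18 had 14 and 15 pairs and shared 11. In each of these bins most Hi-C pairs were KLF4 pairs as well, beside 4.85% of all Hi-C pairs. The bins were chosen for having most KLF4 pairs, which favours such sharing.

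Genes of the pluripotency network had KLF4 pairs at a larger share of their start bins than genes in general. Of 29 placed pluripotency and ES genes, 26 had a KLF4 pair at their start bin and 23 a Hi-C pair, against 7026 (35.9%) and 13606 (69.5%) of 19575 placed protein-coding genes. All 29 also had a pair in the ES H3K27ac list, which held 9576 of the 19575 genes. Of the 26 genes, 11 had a pair that both lists held, against 5349 of the 7026 genes. KLF4 pairs with no Hi-C pair at all were found at 6 of the 29 genes and at 401 of all genes. Genes missing from the promoter table were placed by the authors' gene names in the TKO lists, which favours bins with contacts; without them the counts were 19 and 17 of 22 genes, against 33.3% and 67.2% of 17492.

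Among the core factors, Pou5f1, which encodes the POU factor OCT4, had 7 KLF4 pairs and 5 Hi-C pairs, of which 3 were shared. Nanog, a homeobox factor, had 3 and 3 and Sall4, a zinc finger factor, 3 and 5, with 0 shared in each. Sox2, the partner of OCT4, had 0 KLF4 pairs and 3 Hi-C pairs. Among 11 naive factors, 9 had a KLF4 pair. Mycn, a MYC family factor of growth, had 5 KLF4 and 7 Hi-C pairs with 0 shared, and the start bins of Esrrb, an orphan nuclear receptor, had 0 and 18. Klf4 itself had 1 KLF4 pair and 0 Hi-C pairs, and Zfp42, a widely used ES marker, 2 and 0.

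The same pattern of unequal lists ran through the signalling genes and ES markers. Il6st, the signal-transducing receptor chain for LIF, had 5 KLF4 and 10 Hi-C pairs with 4 shared, and Fgf4, a growth factor secreted by ES cells, had 4 and 10 with all 4 shared. Tdgf1, a Nodal co-receptor, had 3 KLF4 pairs and 0 Hi-C pairs. Dppa5a had 3 and 0, and the DNA demethylating enzymes Tet1 and Tet2 had 2 and 1 against 0 and 0. Dnmt3l, a cofactor of DNA methylation, had 3 and 24, with 3 shared. Lefty1 could not be placed in a bin.

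Other gene groups gave lower or mixed counts. Of 10 placed fibroblast genes, 4 had a KLF4 pair and 6 a Hi-C pair: Col1a1 and Fn1, of the extracellular matrix, had 3 KLF4 pairs each, Runx1 had 2 and the surface marker Thy1 had 1. Ribosomal protein genes had KLF4 pairs at 53 of 94 and Hi-C pairs at 83. Hox genes, which pattern the body axis, had KLF4 pairs at 24 of 34, Hi-C pairs at 29 and ES H3K27ac pairs at 7. Zinc finger genes named Zfp, at 128 of 342, were close to the 35.9% of all genes. Olfactory receptor genes had KLF4 pairs at 11 of 941 and Hi-C pairs at 122. Genes of a cluster share bins and neighbours, so these counts are descriptions.

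The strength of contact in the 2 assays was compared over pairs that both lists held, with counts scaled to those pairs. Of 15441 pairs tested, 485 (3.14%) differed at an adjusted p under 0.05 by the quasi-likelihood test of edgeR, adjusted by Benjamini-Hochberg. In KLF4 HiChIP 329 (2.13%) were higher, by a median of 1.01 on the log2 scale, and 156 (1.01%) were higher in Hi-C, with a median log2 of -0.95. The median over all pairs was -0.01. Adjacent bins leaned towards KLF4, with a median log2 of 0.17, 191 pairs higher and 8 lower, and pairs 20 kb apart towards Hi-C, with -0.15, 46 higher and 71 lower. With scaling within each distance 221 were higher and 63 lower, and 233 of these 284 calls were among the 485. By chromosome, the median log2 ran from -0.26 on chromosome 11 and -0.19 on chromosome 19 to 0.23 on chromosomes 1 and X.

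The number of calls depended on which libraries were used. Without KLF4 replicates 1 and 2 it was 1114, without replicates 3 and 4 it was 18, and without Hi-C replicate 1 or 2 it was 20 or 46. With all 6 libraries kept separate it was 1035, without single KLF4 replicates 1, 2 and 4 it was 1198, 1135 and 293, and without Hi-C replicates 1 and 2 it was 240 and 234. Without Hi-C replicate 2 the split turned, with 98 higher in KLF4 and 136 higher in Hi-C, or 17 and 29 with joined libraries. DESeq2 called 89 pairs, 77 of them higher in KLF4, and gave an adjusted p for 1072 of 15448 pairs.

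The largest KLF4 excess lay inside Esrrb. The bins starting at 86470001 and 86490001 on chromosome 12, both within the gene body, had 131, 163, 225 and 230 common-pair CPM in the KLF4 libraries and 51.3 and 57.9 in the Hi-C libraries, where common-pair CPM is the CPM scale recomputed here from each library's counts over the pairs in both lists. All 4 KLF4 libraries were above both Hi-C libraries, as the rule for naming pairs required, and replicates 3 and 4 were above replicates 1 and 2. The means were 185 ± 60.1 and 54.6 ± 4.73 (SD, n = 2 each), a log2 difference of 1.79 ± 0.26 (SE, adjusted p = 0.00018 by edgeR). A second pair inside Esrrb, from 86460001 to 86500001, had 53.7, 83.5, 155 and 147 common-pair CPM against 44.4 and 26.9, a log2 difference of 1.67 ± 0.30, and without KLF4 replicates 3 and 4 its adjusted p by edgeR was 0.306. The bins starting at 86470001 and 86500001, 30 kb apart, formed the second strongest KLF4-only pair (anchors 20 kb or more apart, 1 pair per chromosome), with 38, 20, 73 and 107 counts. The gene's start bins, by contrast, had 0 KLF4 pairs.

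The other KLF4 excesses lay at Mycn, at Malat1 and Neat1, and at Sgk1. A bin starting at 12780001 met a bin of the Mycn body next to its start bin, 150 kb away, with 89.6, 83.5, 102 and 140 common-pair CPM in KLF4 and 25.6 and 38.2 in Hi-C, a log2 difference of 1.73 ± 0.27, with an adjusted p of 0.053 by edgeR without Hi-C replicate 1 and no adjusted p from DESeq2. Malat1 and Neat1, neighbouring genes of abundant nuclear RNAs, had 92.1, 96.1, 215 and 215 common-pair CPM against 42.7 and 60.8, a log2 difference of 1.60 ± 0.29. Here replicates 3 and 4 were far above replicates 1 and 2, and without them the adjusted p by edgeR was 0.264. The bin of the noncoding RNA Platr6 met a start bin of Sgk1, a kinase of salt and stress signalling, 140 kb away, with 43.5, 58.5, 76.0 and 77.6 common-pair CPM against 22.2 and 21.2, a log2 difference of 1.57 ± 0.31, with an adjusted p of 0.198 by edgeR without replicates 3 and 4. The rule for naming pairs required all KLF4 libraries to lie above both Hi-C libraries at each of these pairs.

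The largest Hi-C excess lay at Sfi1, a gene of centrosome function, and the neighbouring pseudogene Pisd-ps1 on chromosome 11. The bins starting at 3120001 and 3150001 had 38.4, 46.0, 56.2 and 49.1 common-pair CPM in KLF4 and 219 and 187 in Hi-C, a log2 difference of -2.08 ± 0.26 (SE, adjusted p = 5.5e-06 by edgeR). The bins at 3130001 and 3150001 had 139, 111, 128 and 160 KLF4 counts and 830 and 879 Hi-C counts, against a median Hi-C count of 42 over pairs not called. Among pairs with anchors 20 kb or more apart, this stretch also held the strongest pair in both lists, from 3150001 to 3170001, and the strongest Hi-C-only pair, from 3170001 to 3190001 with 1282 and 1366 counts. Reads shared with near-identical copies cannot be told apart in these counts. The start bin of Tmem267 on chromosome 13 met a bin 130 kb away with 64.0, 54.3, 56.2 and 67.3 common-pair CPM in KLF4 and 203 and 150 in Hi-C, a log2 difference of -1.49 ± 0.25. A 170 kb pair at Grk5, a kinase of receptor desensitisation, had 8, 4, 2 and 1 KLF4 counts against 20 and 25, and its adjusted p was 0.037 by edgeR and 0.468 at the highest of 18 alternatives.

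**Figure D4:**
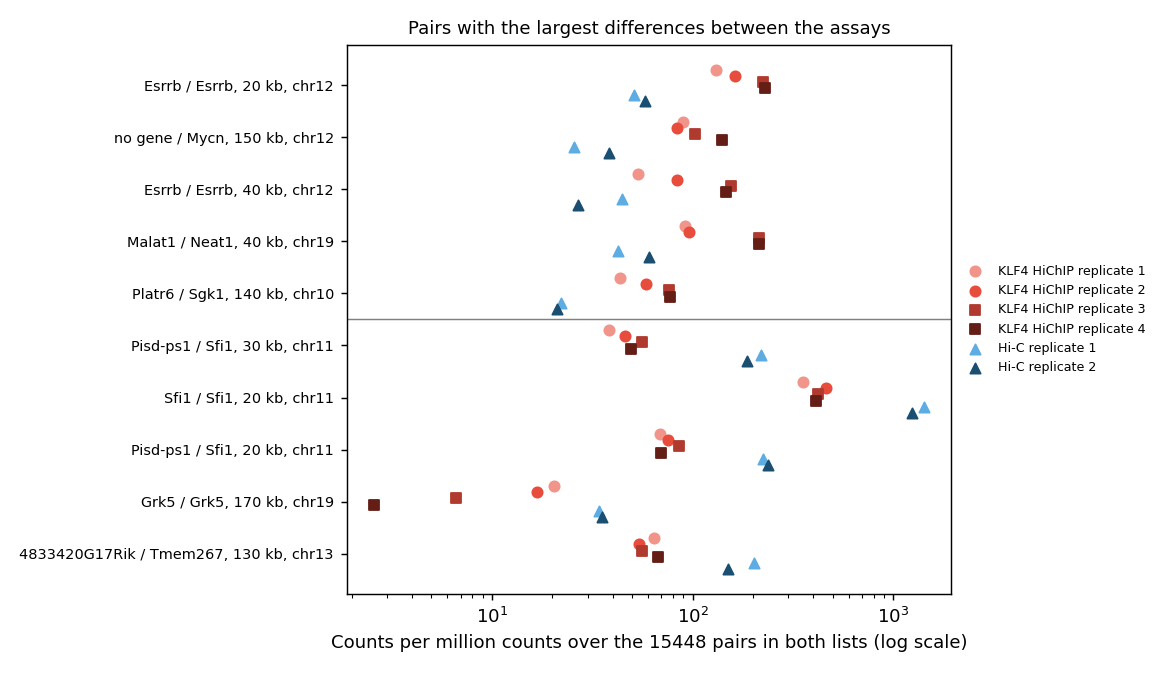
Common-pair CPM, scaled to the counts over the 15448 pairs in both lists (x axis, log scale), in each of the 6 libraries, for the 5 pairs with the largest KLF4 excess (above the line) and the 5 with the largest Hi-C excess (below it), named by a gene or noncoding RNA in each anchor. The pairs were chosen so that no KLF4 library overlaps a Hi-C library. Replicates 3 and 4 lie above 1 and 2 at both Esrrb pairs.

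The strongest pairs of each class were also taken with anchors 20 kb or more apart and 1 per chromosome. In both lists, a pair within Slc2a3, a glucose transporter gene near Nanog, had 68, 39, 74 and 130 KLF4 counts and 59 and 53 Hi-C counts, a log2 difference of 1.45 ± 0.26 (adjusted p = 0.0022 by edgeR), and 0.204 without KLF4 replicates 3 and 4. A pair at Brd8 and Kif20a on chromosome 18 had a log2 difference of 1.38 ± 0.25, with an adjusted p of 0.0706 by edgeR without those replicates. A pair from Junb, an AP-1 factor, to Hook2, a microtubule linker, did not pass the test (0.64 ± 0.24, adjusted p = 0.122). Strong KLF4-only pairs included the Platr6 bin and a bin 20 kb before it, with 49, 35, 51 and 73 counts, and a pair from Aurkb, a mitotic kinase, to Borcs6 with 44, 32, 52 and 64. Each anchor of the Aurkb pair also held tRNA genes. The strongest Hi-C-only pairs outside Sfi1 lay at Cwc22, a splicing factor gene, with 287 and 159 counts, and at Mroh2a with 176 and 212.

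Pairs that were higher in KLF4 HiChIP joined bins with TKO 0 h H3K27ac peaks more often than the other common pairs did. Both anchors held a TKO 0 h peak in 279 of the 329 pairs (84.8%, 80.5 to 88.3), in 43.7% (42.9 to 44.5) of pairs not called and in 28 of the 156 pairs higher in Hi-C (17.9%, 12.7 to 24.7). The ES H3K27ac list held 325 of the 329 (98.8%), 74.8% of those not called and 78 of the 156. KLF4 HiChIP at day 3 listed 58.4%, 31.2% and 17.3%, and MEF Hi-C listed 66.9%, 64.5% and 91.0% (85.5 to 94.6). At least 1 gene start lay in 41.9% (36.6 to 47.4) of the pairs higher in KLF4. The share was 48.6% (47.7 to 49.4) of those not called and 51.9% (44.1 to 59.7) of those higher in Hi-C. The first interval lay below the second and overlapped the third.

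The pairs higher in KLF4 had a median KLF4 count of 38.5, against 20.5 for pairs not called. Among the 285 uncalled pairs with a mean of 38.5 counts or more, 95.4% (92.4 to 97.3) were in the ES H3K27ac list and 66.7% (61.0 to 71.9) had peaks at both anchors. The first interval overlapped that of the pairs higher in KLF4 (96.9 to 99.5) and the second did not. The pairs higher in Hi-C had a median KLF4 count of 15. Among the 3937 uncalled pairs with a mean of 15 or less, 63.1% (61.6 to 64.6) were in the ES H3K27ac list. Peaks lay at both anchors of 35.5% (34.1 to 37.0) of them. Both intervals lay above those of the pairs higher in Hi-C (42.2 to 57.8 and 12.7 to 24.7). With anchors 20 kb or more apart, peaks at both anchors were found in 122 of 138 pairs higher in KLF4 (88.4%) and 28 of 148 higher in Hi-C (18.9%). Without KLF4 replicates 3 and 4, 10 of 13 pairs higher in KLF4 and 0 of 5 higher in Hi-C had them, and with distance scaling 200 of 221 and 7 of 63.

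**Figure D5:**
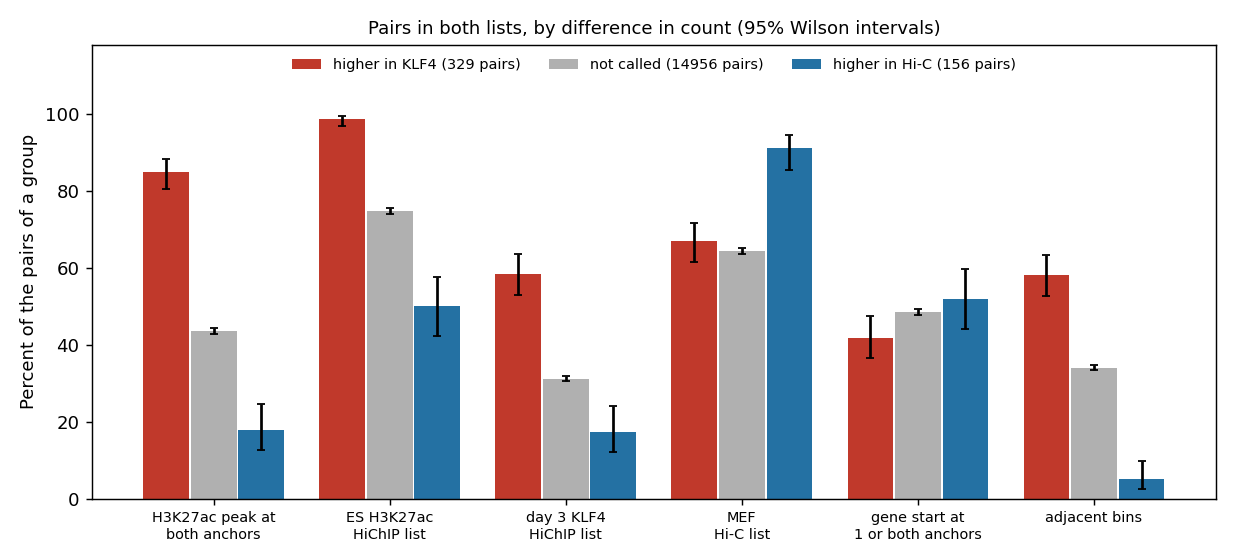
Percent of the pairs of each group (y axis) with the feature named on the x axis, for the 329 pairs higher in KLF4 HiChIP, the 14956 not called and the 156 higher in Hi-C, with 95% Wilson intervals. Peaks at both anchors were found in 84.8%, 43.7% and 17.9% of the groups, and adjacent bins made up 58.1%, 34.1% and 5.13%; with scaling within distance adjacent bins were 26.2% of pairs higher in KLF4 and 34.9% of those higher in Hi-C.

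Of the pluripotency and ES genes, 26 common pairs at their start bins were tested, 3 were higher in KLF4 and 0 higher in Hi-C, beside 2.13% and 1.01% of all common pairs, and their median log2 was 0.30 against -0.01 for all pairs. The bin of Tbx3, a T-box factor of naive cells, met a bin 90 kb away with 51.2, 50.1, 119 and 135 common-pair CPM in KLF4 and 27.3 and 42.4 in Hi-C, a log2 difference of 1.37 ± 0.31 (adjusted p = 0.011 by edgeR). All 4 KLF4 libraries were above both Hi-C libraries, but replicates 1 and 2 were close to the higher of them, and without replicates 3 and 4 the adjusted p by edgeR was 0.60. Il6st met a bin 20 kb away with 128, 100.2, 178 and 158 common-pair CPM against 59.8 and 69.2, a log2 difference of 1.16 ± 0.25 (adjusted p = 0.0083 by edgeR). At Fgf4 the adjacent bin gave 131, 79.4, 202 and 189 common-pair CPM against 76.9 and 70.7, a log2 difference of 1.09 ± 0.26, and it was not called with scaling within distance. Without KLF4 replicates 3 and 4 the adjusted p by edgeR was 0.184 at Il6st and 0.399 at Fgf4. The 3 pairs of Pou5f1 ran from -0.13 to 0.49 and those of Stat3, the transcription factor of the LIF pathway, were at -0.66 and -0.66, none past the test. Of 4 pairs at fibroblast genes, 1 was higher in KLF4, at Runx1 (1.12 ± 0.24, with an adjusted p of 0.119 by edgeR without KLF4 replicates 3 and 4), while the 3 at Col1a1 ran from -0.63 to -0.49 and were not called. Ribosomal protein genes had 2 higher and 1 lower of 75, zinc finger genes 6 and 0 of 175, Hox genes 0 and 0 of 15 and olfactory receptor genes 0 and 0 of 4, and these counts are near the 2.13% and 1.01% of all common pairs.

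The distance profile of the common pairs was compared in each library. Pairs of 50 kb or more took 10.4%, 10.6%, 9.56% and 9.80% of the KLF4 counts over common pairs and 9.92% and 9.97% of the Hi-C counts, so the Hi-C libraries lay within the KLF4 range. The difference was 0.146 percentage points (exact permutation test, two-sided, p = 1.00, 2 replicates each, for which the smallest possible p is 0.333). Adjacent bins took 45.6%, 45.4%, 47.2% and 47.1% of the KLF4 counts and 41.7% and 41.9% of the Hi-C counts. All 4 KLF4 libraries were higher there, by 4.51 percentage points over joined replicates, at the smallest p this exact permutation test allows (0.333).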

How the data were processed

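Chromatin contacts were measured in 4 KLF4 HiChIP and 2 Hi-C libraries of ES cells. Per the submitters' processing notes, reads were aligned with Bowtie2 2.2.3 to mm10; the contact caller, its test and its filters are not given in the sources used here. Per the file headers, each list deposited by the authors gives, for each pair of 10 kb bins, a raw count and a CPM per library, with 1 p-value and 1 FDR. The deposited KLF4 CPM is the count scaled to the contacts of the same chromosome, as count over CPM was constant within each chromosome. The deposited Hi-C signal, headed CPM, is scaled otherwise. It was used only to describe the list's lower limit and to choose the pairs of the Hi-C replicate check. The members and gene lists were chosen with earlier results of these data known.

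Pairs were classed by identical bins, and shares carry 95% Wilson intervals, which cover counting error only. Pairs share bins and neighbours and each assay has a single list, so pairs are not replicates. PCR copies within the counts are not independent molecules either. Libraries with a chi-square p of 0.05 or more over their counts were summed. Counts of pairs in both lists were tested with edgeR 4.0.16 (R 4.3.3; filterByExpr, which removed 7 pairs, TMM, only these 2 groups in the fit), after a check on simulated data. The test is conditional on both lists and says nothing of pairs in 1 list. Alternatives were DESeq2 1.42.0, other scalings, filters, distances, replicate groupings and list cutoffs. Gene starts came from RefSeq promoter windows (GRCm38.p6), which held 79.9% of 21900 protein-coding genes, and otherwise from the authors' gene names in the TKO lists. Pairs were named by rule: the 5 largest called changes in each direction with all KLF4 libraries on 1 side of both Hi-C libraries and anchors 20 kb or more apart, the 5 strongest per class (anchors 20 kb or more apart, at most 1 per chromosome), the 3 longest KLF4 pairs per class and the 5 bins with most KLF4 pairs (at most 2 per chromosome). Of these, 1 pair is not reported here. Python 3.11.15, numpy 2.4.6, pandas 2.3.3, scipy 1.17.1, statsmodels 0.14.6 and matplotlib 3.10.9 were used.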

Additional observations from a re-analysis of the deposited data

Results flagged for a closer look

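Of 28 per-library values tested with Dixon's test at the 95% level among the 4 KLF4 libraries, which chance flags in about 5% of groups, 1 stood apart. The authors' CPM of the 150 kb pair between the bin starting at 12780001 and the Mycn bin starting at 12930001 was 9.08, 8.74, 9.22 and 11.9, and replicate 4, at 11.9, lay far from the other three.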

How the results depend on the processing

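The 62.8% of KLF4 pairs found in Hi-C became 89.7% with a tolerance of 1 bin, 59.2% among the 49 KLF4 pairs with a deposited FDR under 0.1, 14.7% with lists of equal length, 63.5% with 1 count cutoff, 65.6% at 20 kb or more and 69.2% over bins that Hi-C covered. In the class shares, the 1-bin tolerance also moved Hi-C pairs near a KLF4 pair into both lists, which then held 60647 pairs rather than 15448. With the 1-bin tolerance, the 1 cutoff and the FDR limit in turn, the share at 50 kb or more was 22.9%, 7.41% and 72.4% for both lists. For KLF4 only it was 2.5% and 45.0% under the last 2, and for Hi-C only 52.9% and 59.998% under the first and last. Gene starts at 1 cutoff, at 20 kb or more and with the authors' names were 41.8%, 43.9% and 47.6% for KLF4 only and 21.7%, 22.1% and 17.8% for Hi-C only, and 52.4% with the authors' names for both lists. The ES H3K27ac share with the tolerance and the 1 cutoff was 47.9% and 78.6% for both lists, 64.9% and 77.1% for KLF4 only and 5.48% and 9.43% for Hi-C only. Different domains took 1.21% of both lists and 1.97% of Hi-C only with the tolerance, and 2.86% and 1.72% of KLF4 only. KLF4 bins with 2 or more KLF4 pairs went from 42.3% to 39.2% (1 cutoff) and 36.0% (20 kb or more), and those with a Hi-C pair from 92.3% to 92.8% at 20 kb or more. The 485 calls became 89 with DESeq2, 284 with scaling within distance, 89 over pairs of 50 kb or more and 1035 with 6 libraries, and leaving out libraries gave 18 to 1198. The fits without a whole joined replicate were chosen after seeing the data and assume that the lone sample varies like the other group. With the replicate number as a block, 111 pairs were called; same-numbered libraries did not deviate together (correlations 0.007 and 0.015 for the 2 shared numbers), so the numbers do not pair them. The order of groups turned for both lists against Hi-C only at 50 kb or more under the FDR limit, both lists against KLF4 only in the ES H3K27ac list with the tolerance, calls higher in KLF4 against Hi-C without Hi-C replicate 2 (98 and 136, or 17 and 29 with joined libraries), and adjacent bins among called pairs with scaling within distance (26.2% and 34.9%). The cause of these shifts was not tested. Median counts of 14 to 27 per pair and library limit what single pairs can show.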
